A study of Danio rerio with 2 samples.

Results

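The data described here are the 48 hpf (hours post fertilization) 2-colour array of zebrafish embryos that carried the MO2-ers2a morpholino, read against embryos that carried a control morpholino. All rows of the array that are not controls, and that stood above the negative control spots in both channels, were taken: 16615 genes and unnamed transcripts of the 18792 measured on either of the 2 arrays of the study. Of these, 9659 have an assigned gene symbol. Eggs of both groups received 10.3 ng of a morpholino, an antisense oligonucleotide that binds a transcript. MO2-ers2a is directed at the transcript of estrogen receptor beta2 and stops its translation (the labels' ers2a is read here as esr2a), and MO-control is the control oligonucleotide that the comparison embryos carried. Both groups were raised at 28.5 C and fixed at 48 hpf, and total RNA of whole embryos was labelled with Cy5 for MO2-ers2a and Cy3 for MO-control. The sources used here do not give the strain, how many embryos were pooled or which sequence the control morpholino has. The other array holds the same pair at 8 hpf in the same dye orientation.

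Estrogen receptors are nuclear receptors that switch genes on or off when they bind estrogen, and zebrafish carry the genes esr1, esr2a and esr2b. At 48 hpf the embryo is in the hatching period: the heart beats, blood circulates, skeletal muscle contracts, lens fibres fill with crystallin proteins, and the first photoreceptors and the interneurons of the retina are leaving the cell cycle. Whole-embryo RNA sums all of these tissues, so fewer cells of a type and less RNA per cell cannot be told apart.

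With 1 array, no dye swap and no replicate, no test between the conditions was possible and no p-value or replicate error is given. Values are log2 ratios of MO2-ers2a over MO-control, and a gene was called at a difference of 2-fold or more, a rule of size. By that rule 207 genes were higher and 207 lower, 1.25% of the measured genes in each direction, of which 139 and 106 have a symbol. The median of all measured genes was -0.02, the middle 50% ran from -0.24 to 0.21, and 47.9% lay above 0. Spots of 1 gene had a pooled SD of 0.24 on the log2 scale, and 10 spike-in probes printed 32 times each had SDs from 0.03 to 0.13. These are spreads within 1 hybridisation and leave out the spread between embryos. Among 63 called genes that rest on several spots, the spots shared 1 direction in 61 and were all past 2-fold in 38. A gene-specific dye bias would look like a difference on this array, and its part in the values was not tested.

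**Figure D1:**
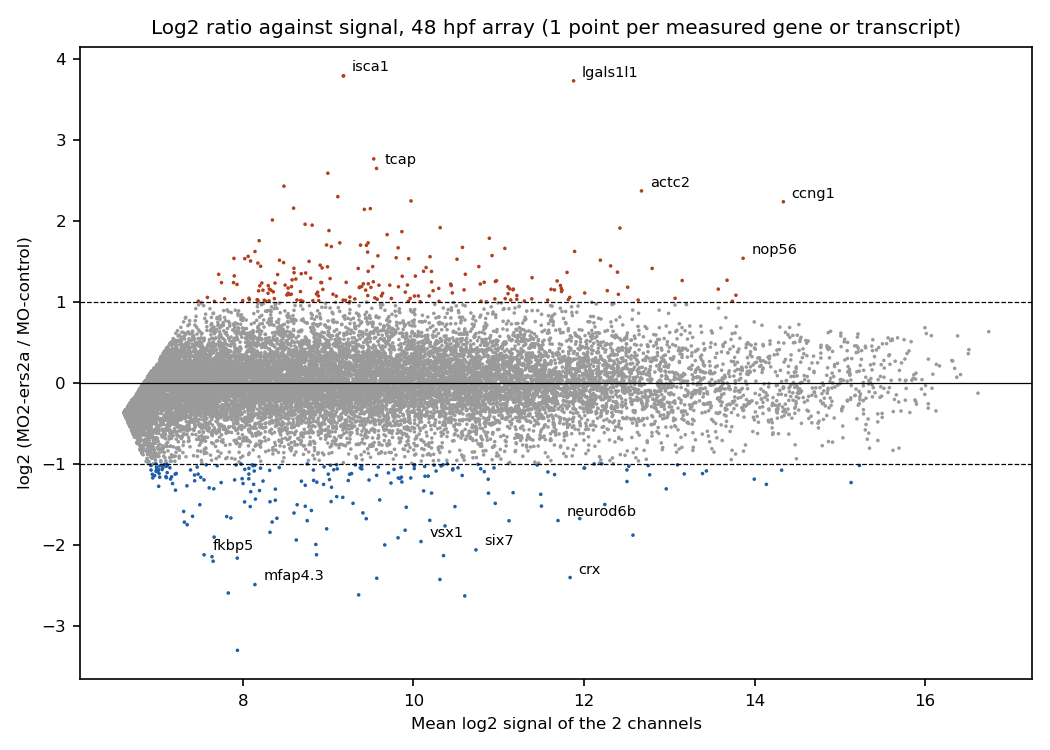
Log2 ratio of MO2-ers2a over MO-control (y axis) against the mean log2 signal of both channels (x axis), with 1 point for each of 16615 measured genes and transcripts. Dashed lines mark 2-fold, the 207 higher points are red and the 207 lower points blue, and ccng1, nop56, actc2 and crx are called at high signal.

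The esr2a transcript itself was too dim for a ratio. Its first spot read 97 in Cy5 and 99 in Cy3 against local backgrounds of 79.5 and 49, and its second read 106 and 82 against 77 and 44. Above the negative control limit was the second spot in Cy5, and no esr2a spot in Cy3. The spot of esr1 was below the limit in both channels, and of the esr2b spots 1 was above it in Cy5 and 0 in Cy3. Since the block is on translation, the transcript need not be lower, and these spots check nothing about the labels. Of the list of estrogen-responsive genes and aromatases, 4 of 15 on the array were measured, all below 0 and 0 past 2-fold. These were esrrga at -0.50, f13a1b at -0.40, the lysosomal protease gene ctsd at -0.10 and the yolk protein gene vtg1 at -0.08. A further 2 members were above the limit in MO2-ers2a only and 1 in MO-control only, so the 4 give no direction for the list.

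Most measured transcripts of the eye lists were lower in MO2-ers2a embryos, in the retina as in the lens. All 37 retinal transcription factor genes of the list were measured. Of these 26 lay below 0, 8 were 2-fold lower and 1 was 2-fold higher, with a median of -0.41. The signal of crx, the cone-rod homeobox factor, was 1590 in MO2-ers2a and 8428 in MO-control, 5.3-fold lower. Its 2 spots gave -2.37 and -2.44, so the spots differed little beside the size of the difference. The related factor otx5 read 567 against 1646, at -1.54 over 2 spots of -1.43 and -1.65, and stood at -0.71 at 8 hpf. Over the 18 list members measured at both times the median was -0.42 at 48 hpf and -0.12 at 8 hpf. six7, needed for green cone opsin expression in zebrafish, read 833 against 3482, and foxq2, a factor of zebrafish blue cones, read 96.2 against 302. The photoreceptor nuclear receptor gene nr2e3 was at 202 against 552, and neurod1 at 7280 against 15828. vsx1, a factor of bipolar interneurons, read 553 against 2151, 3.89-fold lower, and bhlhe23, which acts in bipolar cells of the mouse, read 115 against 243. The exception in the list was rx1, a retinal homeobox gene, at 1371 against 601 (log2 ratio of 1.19), followed below 2-fold by foxn4 at 0.49 and otx2a at 0.48.

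Genes of light detection were less often measured, 24 of the 54 on the array, and 20 of the 24 lay below 0 with a median of -0.30. Outside these 24, 6 members were above the limit in MO2-ers2a only and 2 in MO-control only. The higher limit in Cy3 can in part set the count below 0. The retinoschisin gene rs1a, which encodes a secreted protein of photoreceptors, read 240 against 780. The red cone opsin gene opn1lw2 read 91.4 against 275, and gnb3a, a cone transducin beta subunit, 98.5 against 204. Both MO2-ers2a signals lie close to the added offset of 50, which draws their ratios toward 0. The limits also favoured dim genes with a high MO-control signal, so the net error of these folds is not known. The recoverin gene rcvrn2 stood at -0.99. Against these, the cone transducin alpha subunit gene gnat2 was higher, at 914 against 280 (1.71), and rlbp1b, a retinoid-binding protein gene of glia, stood at 0.51. The 2 cone transducin subunits thus differed in direction, each on 1 spot. The green opsin gene opn1mw3 was above the limit in MO2-ers2a only, at least 2.14-fold higher with a signal of 221. Of 16 non-visual opsin genes 3 were measured, with opn6a at -1.91, rgrb at -0.14 and rgra at 0.28. Another 4 were above the limit in MO2-ers2a only and 0 in MO-control only.

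Lens genes had the lowest median of the tissue lists with 10 or more measured members, -0.62, with 28 of 31 below 0, 5 past 2-fold lower and 0 past 2-fold higher. lgsn, which encodes lengsin, a glutamine synthetase-like protein of lens fibres, read 390 against 1249. grifin, a lens galectin-related gene, read 181 against 432, and stood at -0.96 at 8 hpf too. Over the 12 lens list members measured at both times the median was -0.39 at 48 hpf and -0.20 at 8 hpf. Among the crystallin genes, which encode the bulk protein of the lens, crygmxl2 read 14053 against 29695, crygm2b 645 against 1331 and crygs4 171 against 345. The members above 0 were the lens membrane protein gene lim2.2 at 0.07, foxe3, a factor of the lens epithelium, at 0.11, and crygn1 at 0.47. The gamma M2d crystallin genes, a group added after values were seen, had 3 measured members, all below 0, with crygm2d18 at 23421 against 55024, crygm2d13 at -0.74 and crygm2d11 at -0.63. Crystallin genes are close copies of each other, and a probe may read more than 1 of them.

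**Figure D2:**
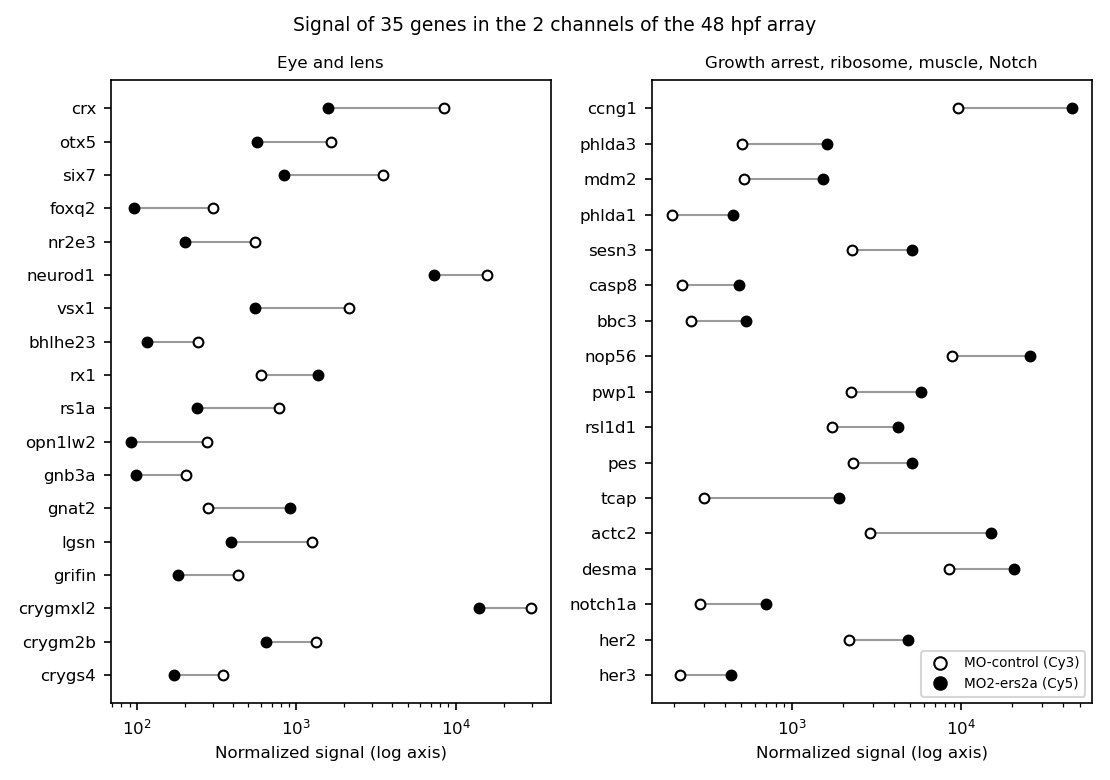
Normalized signal of 35 genes in the MO-control channel (open circles) and the MO2-ers2a channel (filled circles) on a log axis, with 1 hybridisation behind each pair. On the left, 16 of the 18 eye and lens genes are lower in MO2-ers2a and rx1 and gnat2 are higher; on the right, all 17 genes shown were chosen as 2-fold higher.

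Measured transcripts of differentiated neurons were mostly lower, while those of Notch signalling were mostly higher. Whole-embryo RNA does not place the Notch genes in the nervous system, and dlc and dll4 also stand in lists of other tissues. Of 46 measured genes of neurons and synapses, 42 lay below 0 with a median of -0.42, yet 0 reached 2-fold in either direction. Outside these 46, 5 members were above the limit in MO2-ers2a only and 0 in MO-control only. The higher limit in Cy3 can thus in part set the count below 0. The largest differences were in stxbp1a, which is needed for synaptic vesicle fusion, at 4534 against 8609, in cnrip1a at 2227 against 4198, in nsfa, which takes fusion complexes apart, at 2584 against 4857, and in the tubulin-binding stmn1b at 10361 against 19054. The highest was the synuclein gene sncga at 0.36. Genes of neurotransmission had a median of -0.18 over 22 members, with 0 past 2-fold. The NMDA receptor gene grin1b (-0.87), the GABA-synthesizing enzyme gene gad2 (-0.78) and the vesicular GABA transporter gene slc32a1 (-0.63) were lowest, and the acetylcholine receptor genes of muscle chrne (0.66) and chrnd (0.54) highest. Glia and myelin genes had a median of 0.04 over 15 members.

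Proneural factors, which commit progenitors to a neuronal fate, differed in direction among themselves. The neurod genes, which act late in neuronal differentiation, made up all 4 of the 2-fold lower members: neurod6b at 1839 against 5984, neurod6a at 259 against 773, neurod2 at 91.8 against 205, and neurod1, also counted among the retinal factors. The MO2-ers2a signal of neurod2 is close to the added offset, so the net error of its fold is not known. Below 0 but short of 2-fold were atoh7 (-0.65), an early factor of retinal ganglion cells, ebf3a (-0.50) and neurod4 (-0.43). The highest members were atoh1b (0.97), ascl1a (0.68), ascl1b (0.67) and neurog1 (0.47), and ebf2 (0.01) and nhlh2 (0.06) lay at the middle. The median over the 13 measured members was -0.43.

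The Notch pathway keeps neighbouring progenitors from differentiating together, through ligands of the Delta and Jagged families, Notch receptors and her target genes. Of 29 measured members, 25 lay above 0, 3 were 2-fold higher and 0 were 2-fold lower, with a median of 0.28. The receptor gene notch1a read 696 against 284. Among the her genes, which encode transcriptional repressors, her2 read 4805 against 2165, her3 437 against 216 and her9 13500 against 8299. The lowest members were close to 0, with the ubiquitin ligase gene mib1 at -0.18, the DNA-binding partner rbpjb at -0.12, and the ligand genes jag1a at -0.10 and dll4 at -0.08. Neural progenitor genes as a list did not stand far from the array, with 18 of 31 above 0 and a median of 0.08. In that list sox19b, a SoxB1 factor of the early embryo and neural plate, was 2-fold higher at 1141 against 480, and all 6 of its spots lay between 1.04 and 1.35. gbx2 (-0.80) and olig2 (-0.58) were its lowest members.

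Early zygotic and pluripotency factors, which are normally most abundant in the blastula and gastrula, had 17 of 19 members above 0 and a median of 0.40. Besides sox19b and her3, which 2 lists share, vox, a ventralizing homeobox repressor, was 2-fold higher at 1261 against 388. mycn stood at 0.80, and the lowest were vent and sp5l, both at -0.37. Germ line genes had 8 of 10 members above 0 with a median of 0.24, among them nanos3 at 475 against 213. Hox genes, with 22 of 41 above 0 and a median of 0.02, lay at the middle of the array, and none of the 41 measured reached 2-fold.

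Skeletal muscle genes were higher, most of all those of the Z-disc and muscle membrane. In the sarcomere, Z-disc and membrane list 30 of 34 lay above 0, 6 were 2-fold higher and 0 were 2-fold lower, with a median of 0.55. tcap, the titin cap protein of the Z-disc, read 1903 against 303, 6.28-fold higher. The actin gene actc2 read 14878 against 2873, and popdc3, which encodes a membrane protein of muscle, 655 against 162. desma, the muscle intermediate filament desmin, read 20353 against 8446 over 3 spots of 0.78 to 1.45. The ubiquitin ligase genes trim63a and trim55a, whose products turn over sarcomere proteins, read 3453 against 1634 and 2845 against 1386. The lowest member was sgcb at -0.34.

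Fast muscle genes had 30 of 38 members above 0 and a median of 0.24, with 1 past 2-fold, the calcium channel subunit cacng1a at 3586 against 1778. cacna1sb (0.88), the fast troponin tnni2a.3 (0.88) and smyd1b (0.85) followed, and ampd1 was lowest at -0.97. Slow muscle genes stood at a median of 0.33 over 9 members with 0 past 2-fold, pvalb7 at 0.75 and prdm1a, the slow fibre determinant, at -0.38. Myogenic factors stood at 0.22 over 17 members, with mef2ca at 0.93, myf5 at 0.78 and fhl2a at -0.74. The 2-fold higher muscle genes included tnni4b.2 at 1.18 (2 spots, both 1.18), which is in no list. Heart genes had a median of 0.07 over 26 members. The troponin I gene tnni1b was the 1 heart list member past 2-fold, lower at 179 against 590, while the atrial myosin gene myh6 stood at 0.65 and smtnl1 at 0.75.

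**Figure D3:**
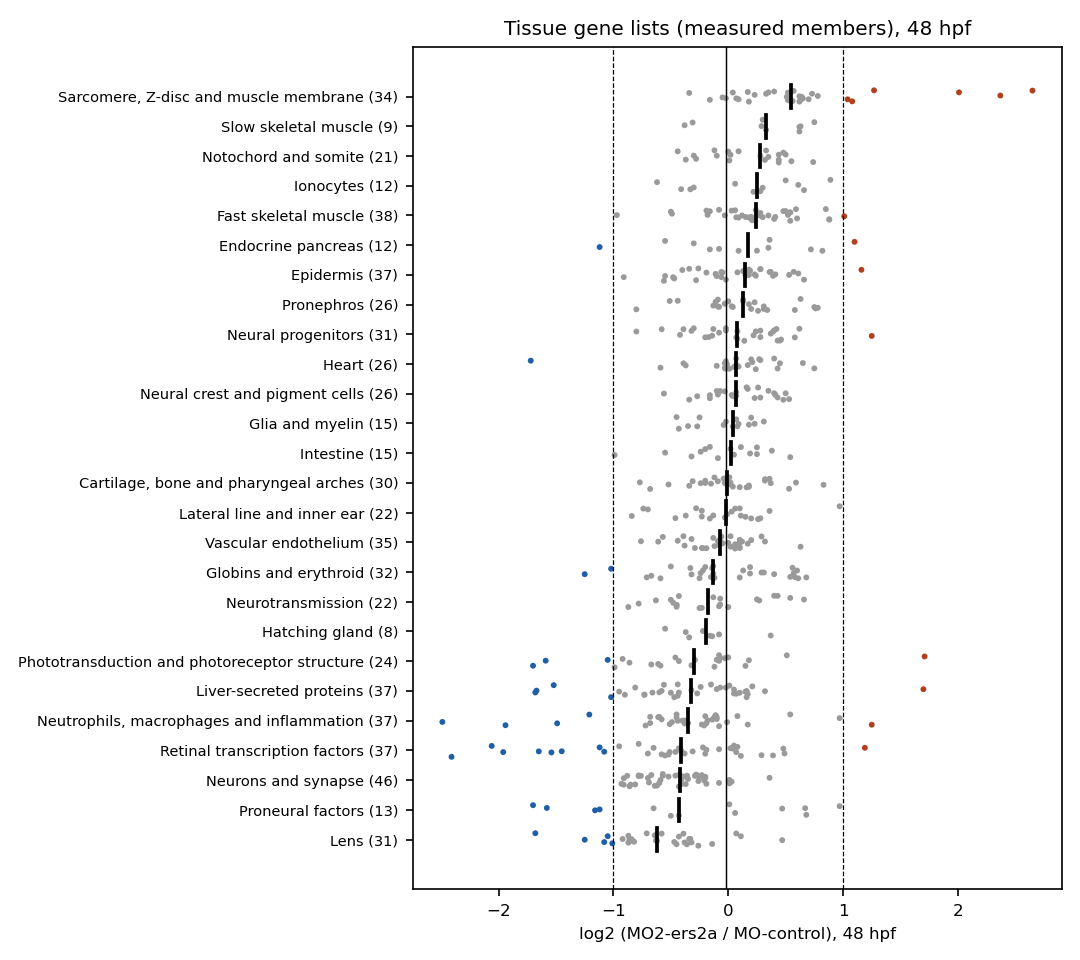
Log2 ratio of each measured member of 26 tissue gene lists, with the number of members in brackets, the list median as a black bar, the median of all measured genes as a thin line and 2-fold as dashed lines. Lens (median -0.62) lies lowest and sarcomere, Z-disc and muscle membrane (0.55) highest.

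Measured genes of myeloid cells were mostly lower. In the list for neutrophils, macrophages and inflammation 32 of 37 measured members lay below 0, with a median of -0.35. Of these members 4 were 2-fold lower and 1 was 2-fold higher. Outside this count, 6 members were above the limit in MO2-ers2a only and 0 in MO-control only. Several measured members are dim, so the count below 0 can in part come from the higher limit in Cy3. The mfap4 genes, used as macrophage markers in zebrafish, read 119 against 671 for mfap4.3, 202 against 776 for mfap4.1 and 397 against 917 for mfap4.2. These family members resemble each other and a probe may read more than 1 of them. lect2l, a neutrophil marker, read 1189 against 3339. nccrp1 was higher at 1831 against 770, and the matrix protease inhibitor gene timp2b stood at 0.97. Of the lymphoid list 2 of 13 genes on the array were measured, gata3 at -0.51 and runx3 at -0.15. The interferon list had a median of -0.13 over 15 members, with irf9 2-fold higher at 592 against 294, b2m, of the MHC class I complex, at 0.92, and ifit8 at -0.97. isg15 was above the limit in MO2-ers2a only, at least 2.04-fold higher.

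Plasma proteins made by the liver and yolk syncytial layer had a median of -0.32 over 37 members, with 4 past 2-fold lower and 1 past 2-fold higher. The apolipoprotein genes apoea and apoa4a read 2214 against 7079 and 1711 against 4918. agt, the angiotensin precursor, read 189 against 604 over 3 spots of -1.73 to -1.20, and rbp4, the retinol carrier, 26982 against 54755. itih3a.1 was higher at 1203 against 369. Red cell genes had a median of -0.13 over 32 members and differed in direction among themselves. The embryonic globin genes hbbe2 (11683 against 27863) and hbae5 (367 against 744) were 2-fold lower, hbae3 stood at -0.71, hbbe3 at 0.54 and the carbonic anhydrase gene cahz at -0.67. The red cell membrane genes ank1a (0.61) and sptb (0.60) and the mitochondrial iron importer slc25a37 (0.68) lay above 0. Vascular endothelium genes had a median of -0.07 over 35 members and 0 past 2-fold, with tal1 at -0.76 and cldn5a at 0.63.

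In the other organs few or no members were called. Medians lay within 0.2 of that of all genes, except for ionocytes and for notochord and somite, which stood higher. In the endocrine pancreas the glucagon gene gcga was 2-fold higher at 555 against 260, pdx1 stood at 0.82 and the insulin gene ins at 0.72, with neurod1 at -1.12. Exocrine pancreas had 5 of 28 genes measured, from pdia2 at -0.01 to prss59.1 at 0.53. Pronephros genes had a median of 0.13 over 26 members and 0 past 2-fold, with slc20a1a at 0.78 and lhx1a at -0.80. Epidermis genes had a median of 0.15 over 37 members, with anxa2a higher at 1.16 and the keratin gene krt18b lowest at -0.91. Ionocyte genes stood at 0.25 over 12 members, with atp6v0a1a at 0.89 (spots of 0.12 and 1.66) and atp1b1b at -0.62 (spots from -0.69 to 0.32). Intestine genes stood at 0.02 over 15 members, with fabp2 at -0.99. Neural crest and pigment genes stood at 0.07 over 26 members, with the melanin pathway genes oca2 at 0.53 and tyrp1b at 0.50 and tfap2a at -0.56. Cartilage, bone and pharyngeal arch genes stood at -0.01 over 30 members, with ucmab at 0.83 and col10a1a at -0.77. Lateral line and inner ear genes stood at -0.02 over 22 members, 10 of them above 0, with the hair cell genes ush1c at -0.84 and otofa at -0.74 lowest and atoh1b, the hair cell determinant, highest at 0.97. Hatching gland genes had 7 of 8 members below 0 and a median of -0.19, with agr2 at -0.55 and the hatching enzyme gene he1.1 at 0.37. Notochord and somite genes stood at 0.28 over 21 members, with epyc at 0.74, fgf8a at 0.55 and foxc1b at -0.44. In the neuropeptide list, with a median of -0.12 over 27 members, cart3 was 2-fold higher at 799 against 298. The hypothalamic factor gene otpb (-0.76) and the oxytocin gene oxt (-0.65) were lowest. Outside the 27, 9 members were above the limit in MO2-ers2a only and 1 in MO-control only.

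Genes of growth arrest and cell death included several strongly higher members, although the list as a whole lay near the array, with a median of 0.09 and 29 of 52 measured members above 0. Of the 52, 7 were 2-fold higher and 0 were 2-fold lower. The highest ratio of these was that of ccng1, cyclin G1, at 45013 against 9532. Its 3 spots gave 2.23, 2.24 and 2.26, so they differed by less than the spread between spots of other genes. phlda3, an inhibitor of Akt signalling, read 1614 against 507, and mdm2, a ubiquitin ligase gene, 1522 against 521, though 1 of its 2 spots was at 0.99, just under 2-fold. Also 2-fold higher were phlda1 at 446 against 194, the sestrin gene sesn3 at 5108 against 2271, the initiator caspase gene casp8 at 485 against 222, and bbc3, which encodes the apoptosis activator Puma, at 534 against 251. Among the low members were ccng2 at -0.71, cdkn1bb at -0.62 and btg1 at -0.45. At 8 hpf the same genes lay near 0, with ccng1 at -0.04, mdm2 at -0.22 and phlda3 at -0.38. In zebrafish, morpholinos can raise genes of this kind whatever their intended transcript; the control embryos here carried a morpholino too, and the part of such an effect in any value above was not tested. Cell cycle and DNA replication genes were spread evenly, with 30 of 60 above 0 and a median of 0.01, gmnn, the inhibitor of re-replication, at 1.08, ccnd1 at 0.74 and ube2c at -0.70.

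Transcripts for making ribosomes were higher. This list was added after values of the array were seen, because several of its members were among the called genes, and its counts are a description only. Of 97 measured members 94 lay above 0, 17 were 2-fold higher and 0 were 2-fold lower, with a median of 0.74. nop56, a core protein of box C/D small nucleolar ribonucleoproteins, read 25466 against 8756, with 3 spots of 1.44 to 1.55. pwp1 read 5733 against 2224, rsl1d1 4218 against 1712, and pes, the pescadillo protein of large subunit assembly, 5101 against 2302, all over 2 spots past 2-fold. nip7 read 5138 against 2230, utp18 5048 against 2307, nop14 3430 against 1545, heatr1 1887 against 840, rbm34 1477 against 593 and rrp8 335 against 132. The other 2-fold higher members were znhit3 at 1.24, tma16 at 1.19, ccdc59 at 1.11, ddx49 at 1.08, nle1 at 1.04, ddx52 at 1.03 and wdr3 at 1.02. The members below 0 were rsl24d1 at -0.32, rrp15 at -0.21 and imp3 at -0.01. Over the 97 members measured at both times the median was 0.74 at 48 hpf and 0.18 at 8 hpf.

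Other parts of the machinery for making proteins, 3 of these lists also added after values were seen, stood between this group and the array. Subunits and factors of RNA polymerases I and III, which transcribe ribosomal and transfer RNA, had 18 of 21 members above 0 and a median of 0.43. brf1a, a factor of polymerase III, read 1324 against 446, gtf3aa, which binds the 5S RNA genes, 1645 against 659, and polr1d, a subunit shared by both polymerases, 2695 against 1155. brf1b stood at -0.37. Mitochondrial ribosomal proteins had 56 of 60 above 0 and a median of 0.30, with mrpl43 at 1679 against 579 and mrps10 at 5097 against 2129. Aminoacyl-tRNA synthetases had 16 of 20 above 0 and a median of 0.24, with sars2 at 0.85 and sars1 at -0.36. Translation factors had 45 of 67 above 0 and a median of 0.20, with eif4a2 2-fold higher, though its 2 spots gave 0.36 and 1.71, and eef1a1a lowest at -0.48. The ribosomal proteins of the cytoplasm, in contrast, had a median of 0.05 over 85 members, a list that also took in kinase genes such as rps6kb1b (0.81) and rps6ka3b (-0.38) through their names. Of them rpl36 was 2-fold higher at 6672 against 2163, but its 2 spots gave 0.30 and 2.95, and rpl22l1, a paralog of rpl22, was 2-fold lower at 10821 against 24698 over spots of -1.29 and -1.09. Proteasome genes had a median of -0.05 over 47 members and 0 past 2-fold, from psmb9a at -0.60 to psme3 at 0.52.

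Mitochondrial genes were higher as a group and by small amounts. The respiratory chain list, which also holds assembly factors, had 70 of 80 members above 0 and a median of 0.25. The complex I subunit gene ndufb10 read 12346 against 5979 and sdhaf2, an assembly factor of complex II, 2478 against 655, with spots at 1.56 and 2.27. ndufa1 was lowest at -0.56. Iron-sulfur cluster assembly genes had 14 of 15 above 0 and a median of 0.34. isca1 read 2165 against 156 on 1 spot, 13.9-fold higher, and was the highest named gene of the array. bola3 (0.93) and iscub (0.86) followed, and ciao1 was lowest at -0.05.

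Genes of the endoplasmic reticulum stress list, most of them chaperones and folding enzymes, were mostly lower. Of 30 measured members 26 lay below 0, with a median of -0.43. Over the 29 members measured at both times the median was -0.44 at 48 hpf and -0.26 at 8 hpf. With the same dye orientation at both times, a dye bias and a lasting difference cannot be told apart. The calcium-binding chaperone gene calr was 2-fold lower at 6267 against 13668, with 3 spots from -1.54 to -0.61. hsp90b1 read 4195 against 7801, dnajb11 265 against 482 and calr3b 735 against 1258, all below 2-fold. The members above 0 were the transcription factor genes atf3 (0.56), ddit3 (0.48) and atf4a (0.43) and the asparagine synthetase gene asns (0.22). Other stress transcription factors of the list lay below 0, with xbp1 at -0.37, atf4b and atf6b at -0.21 and atf6 at -0.17. The wider secretory pathway, a list added after values were seen, had a median of -0.09 over 64 members, with ergic1 at -0.67, sec61b at -0.50 and copz2 2-fold higher at 1.01. The 3 spots of copz2 disagreed, running from -0.00 to 1.17. Cytoplasmic heat shock genes stood at 0.06 over 31 members, with hspb11 2-fold higher on all 5 spots (1.04 to 1.26), hspa14 at 0.94 and hspa8 at -0.71. In the oxidative stress list, with a median of 0.04 over 46 members, the heme oxygenase gene hmox1a was 2-fold lower at 1176 against 3025, and fthl28, a ferritin-like gene, 2-fold higher at 547 against 257.

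**Figure D4:**
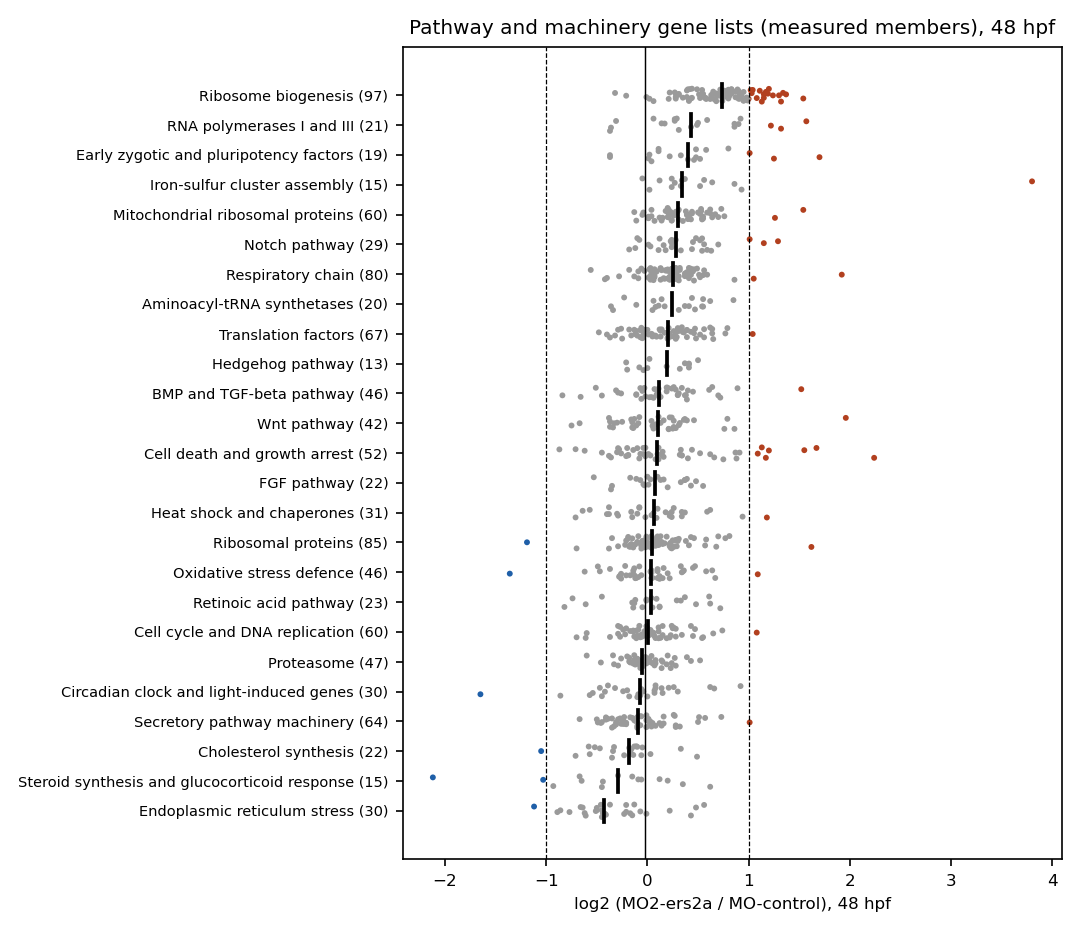
Log2 ratio of each measured member of 25 pathway and machinery lists, drawn as for the tissue lists, with the list median as a black bar and 2-fold as dashed lines. Ribosome biogenesis (median 0.74) lies highest and endoplasmic reticulum stress (-0.43) lowest.

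Among the signalling pathways other than Notch, medians stood between 0.04 and 0.19 with few called members. In the Hedgehog list 9 of 13 lay above 0, from boc at -0.21 to the ligand gene shha at 0.50. In the Wnt list 25 of 42 lay above 0, and rspo1, a secreted agonist of Wnt signalling, was 2-fold higher at 839 against 215; the ligand genes wnt16 (0.86) and wnt3 (0.79) followed, and the intracellular dvl1a (-0.75) and apc (-0.67) were lowest. FGF pathway genes ran from fgf13a at -0.53 to the ligand gene fgf8a at 0.55. In the BMP and TGF-beta list 31 of 46 lay above 0, with id1, a BMP target, 2-fold higher at 7923 against 2768, the BMP antagonist gene chrd at 0.89 and id4 at -0.84. In the retinoic acid list rpe65a stood at 0.72 and the binding protein genes crabp1b and crabp1a at 0.62 and -0.82.

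Steroid and glucocorticoid response genes had a median of -0.29 over 15 measured members. fkbp5, a chaperone of the glucocorticoid receptor that glucocorticoids induce, read 89.5 against 390, with spots of -2.69 and -1.56. srd5a2a, a steroid reductase gene, read 91.3 against 186, and the steroid hydroxylase gene cyp17a1 stood at -0.93. The MO2-ers2a signals of fkbp5 and srd5a2a are close to the added offset, so the net error of their folds is not known. per1b (0.62), star (0.35) and the receptor gene nr3c1 itself (0.20) lay above 0. In the clock list, with a median of -0.07 over 30 members, the nuclear receptor gene nr1d2a was 2-fold lower at 127 against 398, rorab stood at -0.86, and cry-dash (0.92) and per3 (0.66) were highest. Of the thyroid axis 4 of 9 genes were measured, from thrb at -0.41 to thraa at 0.39. Cholesterol synthesis genes had 19 of 22 below 0 and a median of -0.18, with acat2 2-fold lower at 2848 against 5908, dhcr7 at -0.71 and idi1 at 0.49. The 3 spots of acat2 ran from -1.29 to -0.44. Fatty acid and lipid genes stood at -0.10 over 33 members, with fabp4b 2-fold higher at 1.16 and elovl4b lowest at -0.84. The methionine cycle and one-carbon list, which also holds polyamine genes, had 15 of 32 members above 0 and a median of -0.10. Of these members 1 was 2-fold higher and 2 were 2-fold lower. The lower ones were sat1a.1, which acetylates polyamines for export, at 466 against 1756 and the antizyme gene oaz2b at 114 against 264. The higher one was odc1, the enzyme that starts polyamine synthesis, at 7922 against 3707.

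Several remaining lists held 1 or 2 called genes. The galectins, sugar-binding lectins, had 6 of 7 measured members above 0 and a median of 0.40. They held lgals1l1 at 13735 against 1033 (13.3-fold higher) and lgals3b at 818 against 183, each on 1 spot. lgals3bp.3, a galectin-binding protein gene that the list took in by name, stood at -0.80. Among immediate early genes, with a median of 0.11 over 29 members, fosab was 2-fold higher at 1.46 and ier2b lowest at -0.85. Solute carriers had a median of -0.01 over 179 members, and the GABA transporter slc6a1b was lowest at -0.96. Of the 179, 2 were 2-fold higher, slc16a9a (1.15) and slc35e4 (1.02), and 0 were 2-fold lower. Over all measured genes 1.25% were called in each direction, so these 2 do not set the family apart. Of 37 integrin, laminin and cadherin genes, itgb1b.2 (-1.07) and pcdh1gb9 (-1.01) were 2-fold lower. Claudins, connective matrix and fin fold genes, and smooth muscle genes each had 0 members past 2-fold, with medians of 0.06, -0.08 and 0.10.

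Other genes among the 20 highest and 20 lowest named ones belong to no list used here. akap17a read 1939 against 284 and kiaa0895l 1256 against 208. prrg1 read 831 against 154, med28, a subunit of the Mediator complex, 1232 against 250, and cfhl2, a complement factor H-like gene, 991 against 269. cavin1a, a coat protein gene of caveolae, read 1027 against 309, and the adhesion gene nectin3b 1292 against 389. On the lower side, zgc:109965 read 232 against 927, tmx3a, a thioredoxin-related gene, 169 against 606, si:dkey-57a22.15 88.8 against 299, mgst2, a glutathione transferase, 650 against 2110, and prkra 130 against 415. Further genes with 2 or more spots all past 2-fold included ndrg1b (-1.29), pou4f4 (-1.16), npc2.1 (-1.08), zgc:163030 (-1.05) and golm1 (-1.01) on the lower side. On the higher side they included txlnbb (1.37), dusp27 (1.16), si:dkey-7c18.24 (1.14), crls1 (1.11), airim (1.07) and dph5 (1.03).

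The offset of 50 added to both channels draws the ratios of dim genes toward 0. The limits also favoured dim genes with a high MO-control signal. For dim lower genes, such as opn6a, nr1d2a and oaz2b, the net error of the fold is not known. In the authors' deposited table, popdc3 stood at 4.45, fkbp5 at -4.19 and isca1 at 5.08 on the log2 scale, and the bright genes ccng1 and apoea at 2.26 and -1.67.

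The 8 hpf array gives the same pair of morpholinos in the gastrula, from other embryos. Of the named genes that were 2-fold higher at 48 hpf, 117 were measured at 8 hpf, with a median log2 ratio there of 0.19, and 18 of them were 2-fold higher at 8 hpf too, where 2.29% of all measured genes were. Of those 2-fold lower at 48 hpf, 57 were measured at 8 hpf, with a median of -0.35, and 9 were 2-fold lower then too, against 2.26% of all measured genes. isca1 stood at 3.80 at 48 hpf and 4.04 at 8 hpf, prrg1 at 2.43 and 2.24, sdhaf2 at 1.92 and 1.43, and id1 at 1.52 and 2.31. On the lower side faima stood at -1.53 at 48 hpf and -2.09 at 8 hpf, hmox1a at -1.36 and -1.24, nr2e3 at -1.45 and -1.12, and ggact.2 at -1.06 and -4.35. Both arrays have the same dye orientation, so a dye bias of a probe and a lasting difference cannot be told apart in these genes. The remaining 22 higher and 49 lower named genes were not measured at 8 hpf, among them crx, vsx1, tcap and actc2.

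**Figure D5:**
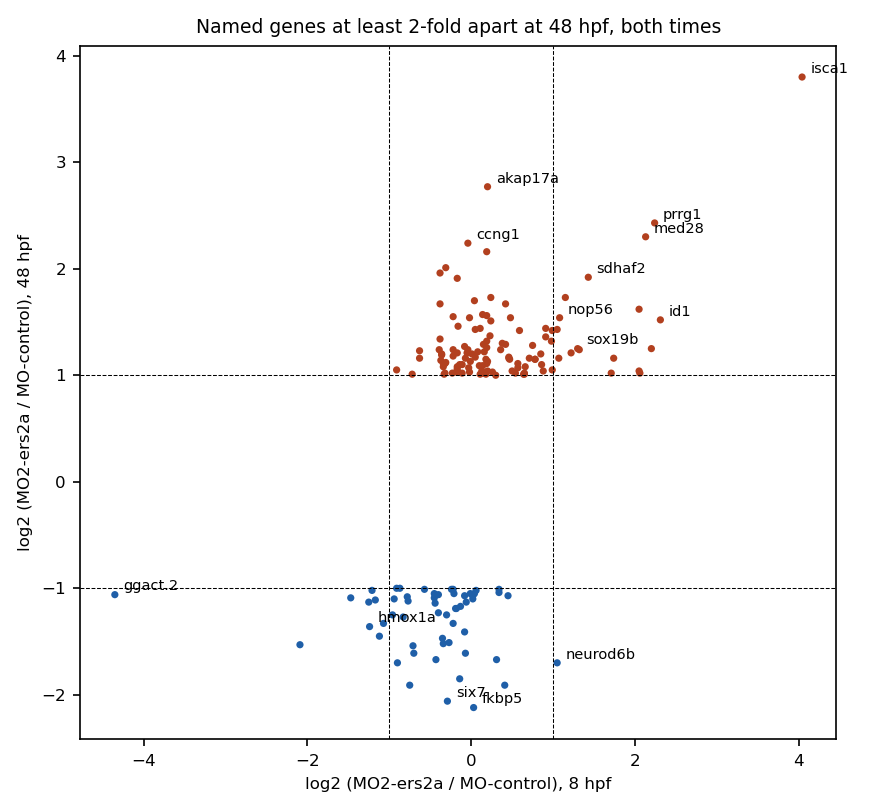
Log2 ratio at 48 hpf (y axis) against that at 8 hpf (x axis) for the named genes past 2-fold at 48 hpf and measured at both times, 117 higher in red and 57 lower in blue, with dashed lines at 2-fold. Most of the higher genes lie between the dashed lines at 8 hpf, and isca1 lies far out at both times.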

How the data were processed

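Total RNA of MO2-ers2a embryos (Cy5) and MO-control embryos (Cy3) was hybridised to 1 Agilent array at 48 hpf, and another pair to 1 array at 8 hpf. The deposited scanner values are intensity per spot, the median signal and median background of each channel per the file headers, read with Agilent Feature Extraction per the submitters' processing notes. The authors' deposited series matrix holds log10 ratios of Cy5 over Cy3 by spot number. That scale and direction come from the values: over 6347 bright spots they rose with the raw log2 ratio with a slope of 0.297 (Pearson r 0.989, across spots, which are not independent replicates). The column median was 0.0000, because 34.7% of spots stood at exactly 0 and were treated as not measured, and the median of the others was 0.0157; the authors' centring is not given in the sources used here.

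Background correction used normexp with an offset of 50 (limma 3.58.1, R 4.3.3), and signals were loess-normalized within the array, with 1417 control spots at weight 0. The limit for a measured spot was set per channel at 2.6 SD above the mean of 153 negative control spots, after background subtraction, which gave 27.7 in Cy5 and 70.1 in Cy3, and a spot had to pass it in both. Of 43803 other spots 20978 (47.9%) passed, and 1.31% of the negative controls. Printed signals are normalized and include the offset, and signals are not set against each other between genes. Measured spots of a gene were summarised by their median; repeat spots of 1 probe cannot be told from different probes. The single array limits the precision. A bound for a gene above the limit in 1 channel sets the bright signal, scaled by loess and Aquantile, over either the dim signal or the lowest signal measured in that channel, whichever is higher, and is open to dye bias. The normalization was checked on a simulated array with known changes, all placed in brighter spots. The ratios of dim spots were not checked in this way.

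Current symbols came from a RefSeq table (assembly GRCz12tu, names only) and Ensembl names: 20395 spots got one of 13638 symbols, 13392 through an older symbol or gene ID, and 23136 found no match. The members, the 65 gene lists and the naming rule were chosen with earlier results of these data known, and 6 more lists were added after the values were seen. The rule names the 20 highest and 20 lowest genes that the authors' ratio also puts past 2-fold, genes with 2 or more spots all past 2-fold, list members past 2-fold and up to 4 extremes of each list each way, the estrogen receptors, and list members with a 2-fold bound; not every extreme of each list is printed, and some genes that the rule names are not reported here. Python 3.11.15 with numpy 2.4.6, pandas 2.3.3 and matplotlib 3.10.9 made the tables and plots. Alternatives for background, normalization, filter and summary were computed. A planned search for motifs in promoters was not made, since no promoter sequences were used here.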

Additional observations from a re-analysis of the deposited data

Results flagged for a closer look

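neurod6b, a factor of late neuronal differentiation, was past 2-fold in opposite directions at the 2 times, with a log2 ratio of 1.05 in the gastrula at 8 hpf and of -1.70 at 48 hpf. Each value rests on 1 spot of 1 array, and the difference was not tested. It was the only such gene among the named genes past 2-fold at 48 hpf and measured at both times.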

How the results depend on the processing

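The count of 2-fold genes depended on the processing. Without loess, centring on measured spots gave 434 lower genes, and centring on all spots gave 1251 higher and 84 lower, with the median of all genes at 0.37. Offset 10 gave 425 lower, a limit of 5 times gave 107 higher and 135 lower among fewer genes, and the authors' deposited log ratio gave 484 higher and 783 lower. The share of calls that were higher was 50% as reported, 38.7% and 93.7% without loess under these centrings, 60.7% with spike-in centring, 39.5% with offset 10 and 38.2% with the authors' values. The other counts stayed within 1.5 times. Because scaling moves every gene, list medians are read against the median of all genes: the 27 lists that stood 0.2 or more from it kept their side under every alternative, over the 26 that could be computed at 5 times the limit. Of 136 called genes covered by the naming rule, 0 changed sign under the 9 alternatives, of which 5 times the limit gave a value for 88; 26 came under 2-fold with centring on all spots, 18 with centring on measured spots and at most 10 in the others. The 136 genes and the 27 lists were chosen by their size in the main values. The 20 highest and 20 lowest genes also had to pass 2-fold in the authors' ratio. All alternatives reprocess the same hybridisation, so keeping a side was largely set in advance and says nothing about replicates. Over 10 blocks of file order the median log2 ratio ran from -0.20 to 0.03. No paired analysis was possible because each time has 1 array and no test was made. Of the genes above the limit in 1 channel, 4075 were in Cy5 and 407 in Cy3, where the limit was higher.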
